A study of Mus musculus with 6 samples.

Results

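The 9 genes examined here are used as markers of microglia, the resident macrophages of the retina: *Csf1r*, *Cx3cr1*, *P2ry12*, *Tmem119*, *Aif1*, *Tyrobp*, *Trem2*, *Cd68* and *Itgam*. They were taken by symbol from the deposited table of 31169 genes, and all 9 were found there. Poly(A) RNA of whole, intact retina was sequenced from male C57BL/6 mice that were 2 months old. The saline group (3 libraries) had received intracameral saline, and the microbead group (3 libraries) intracameral polystyrene beads of 15 μm in diameter, at 1 month of age. Both groups were taken 4 weeks after injection. Beads lodge in the anterior chamber angle, where aqueous humor drains, and intraocular pressure (IOP) rises. The labels name no transgene, eyes were injected on both sides, and no cells were sorted, so that every value is a mean over all cells of the retina. The comparison asks whether microglia gene expression differed between retina with and without bead-induced IOP elevation.

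Microglia survey neural tissue with fine processes and engulf debris and synapses. In undisturbed tissue they are held in a resting, or homeostatic, state by signals from neurons and glia. After injury they retract their processes, divide and raise their phagocytic and lysosomal machinery, while homeostatic genes are lowered. *Csf1r* encodes the receptor for CSF1 and IL-34, on which microglia depend for survival. *Cx3cr1* encodes the receptor for fractalkine, a ligand made by neurons, and *P2ry12* a purinergic receptor that steers processes toward released nucleotides. *Tmem119* encodes a surface protein of microglia. These 4 were grouped as homeostatic members. *Aif1* encodes the calcium-binding protein IBA1, *Trem2* a lipid-sensing receptor, *Tyrobp* the adaptor DAP12 through which TREM2 signals, *Cd68* a lysosomal glycoprotein of phagocytes, and *Itgam* the CD11b subunit of complement receptor 3. These 5 were grouped as activation-associated members.

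Library totals were 36085737 to 46481382 counts in saline retina and 13574949 to 19834366 in microbead retina. Library sizes were scaled by TMM, and levels are given as counts per 1e+06 of the scaled size (CPM). The saline libraries carry one series of names and the microbead libraries another, so that a difference between preparations or sequencing runs, if the names mark these, cannot be told apart from the injection. The labels give each library its own tag but do not say that each came from a separate animal, and the p-values measure the spread between these libraries only. The members held between 5 and 1439 counts per library, so that the depth limits the least abundant of them.

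One control retina stood apart. Saline replicate 1 had the highest level of the saline libraries in 9 of 9 members and the highest of all 6 libraries in 7. The summed CPM of 20 other genes of myeloid cells (the pan-myeloid list, such as *Ptprc* and the *C1q* genes) was 371 in this library, against 89.8 and 126 in saline replicates 2 and 3 and 80.9 to 199 in the microbead libraries. Lymphocyte markers summed to 8.47 CPM in saline replicate 1 and to at most 1.81 CPM in any other library, and the defining T cell gene *Cd3e* was at 1.12 CPM there and at 0 in 4 of the other 5. Markers of retinal ganglion cells (RGCs) summed to 327 CPM in saline replicate 1, and to 823 to 1236 CPM elsewhere. Pigment epithelium markers summed to 12.5 CPM in this library, against 57.4 to 247 CPM. The part of these differences in the microglia values was not tested, and the fold change of each member is given with and without saline replicate 1. The share of mitochondrial transcripts moved with the groups, at 3.19, 3.30 and 3.57% of counts in saline and 10.6, 8.90 and 9.97% in microbead retina. Its part in the member values was not tested beyond library sizes computed without these genes, under which edgeR called 0 members. At the other end, microbead replicate 3 had the lowest level of the microbead libraries in 9 of 9 members.

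**Figure D1:**
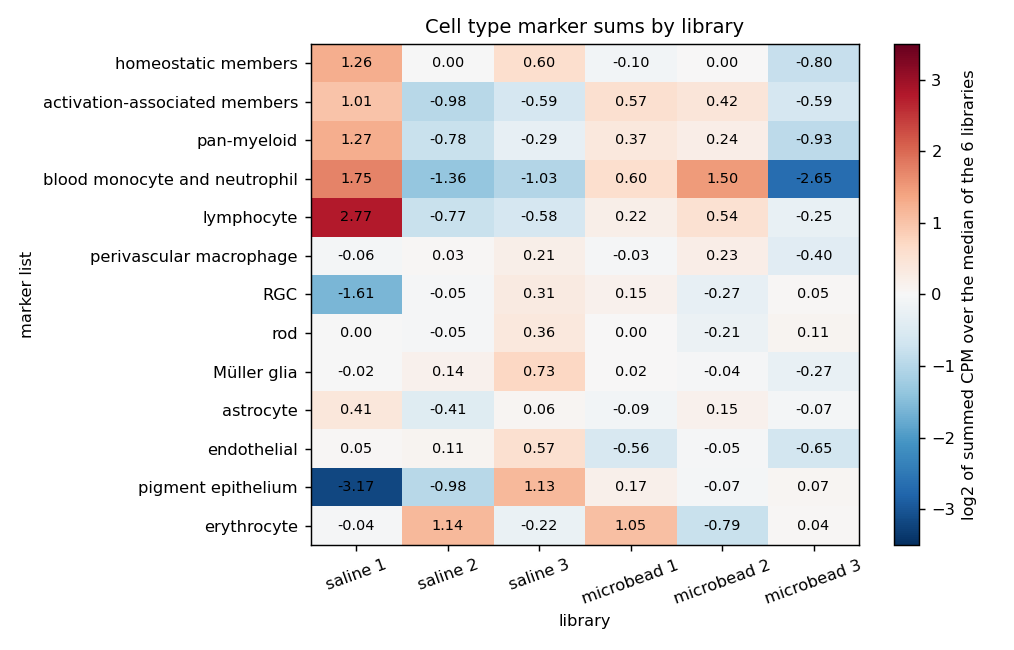
Summed CPM of marker gene lists in each of the 6 libraries, as log2 of the sum over the median of the 6 libraries (color and number; rows are lists, columns are libraries). Saline 1 reads 2.77 for lymphocyte, 1.27 for pan-myeloid and -1.61 for RGC markers, and microbead 3 reads -0.93 for pan-myeloid markers.

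Resident microglia and other macrophages share most of these genes, and whole retina can also hold blood cells. Of 8 markers of blood monocytes and neutrophils, 0 reached the count needed for testing. Their summed level was 4.12 CPM in saline replicate 1, 3.47 CPM in microbead replicate 2 and 0.195 to 1.85 CPM in the other libraries. Of the 7 perivascular macrophage markers, *Cd163* and *Pf4* were at 0 in 4 of the 6 libraries each, and *F13a1* and *Cbr2* had at most 5 counts in any library. *Mrc1* had 30 counts (0.797 CPM) in saline replicate 1 and 0 to 3 counts in the others. *Lyve1* (10.2 to 19.0 CPM) and *Stab1* (2.14 to 5.34 CPM) were the only 2 of those 7 markers that were tested, and both are also made by endothelium. Microglia transcripts themselves were present in every library, with *Sall1*, a transcription factor gene of microglia that other retinal cells also express, at 2.43 to 4.41 CPM, and *Siglech* at 1.56 to 2.65 CPM. Not every such gene was found in each library. *Fcrls*, a further homeostatic microglia gene named after its values were seen, had 0 counts in microbead replicate 3 and 20 to 135 counts in the others. In these bulk samples, fewer microglia and less RNA per microglial cell cannot be told apart.

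Divided by exon length (RPKM, the CPM divided by kilobases of exon), *Tyrobp* had the highest level of the 9 genes in both groups, at 7.66 ± 4.94 RPKM in saline and 8.16 ± 4.27 RPKM in microbead retina (SD, n = 3 each). *Itgam* had the lowest, at 0.652 ± 0.676 and 0.262 ± 0.181 RPKM (SD, n = 3 each). *Csf1r* ranked 2 in saline retina (4.45 ± 2.03 RPKM, SD, n = 3) and 4 in microbead retina (1.92 ± 0.667 RPKM, SD, n = 3), whereas *Cd68* ranked 4 in saline (2.80 ± 2.20 RPKM, SD, n = 3) and 2 in microbead retina (6.35 ± 2.20 RPKM, SD, n = 3). Between them in saline retina lay *Cx3cr1* at 2.99 ± 1.31 RPKM (SD, n = 3). Each gene overlapped with the next one in this order in its range over libraries, except that *Tmem119* lay above *Itgam* without overlap in microbead retina.

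Of the 9 members, 0 had an adjusted p-value under 0.05 from edgeR's quasi-likelihood test, which called 12.8% of the 17707 genes tested (6.46% higher and 6.31% lower in microbead retina). Of their log2 fold changes, 6 were below 0 and 3 above, with a median of -0.50, against -0.03 for all tested genes. At an unadjusted p-value under 0.05 there were 4 members (*Csf1r*, *Cx3cr1*, *Tmem119* and *Cd68*), where 31.4% of all tested genes passed. On the same counts, DESeq2 called 3 members (*Csf1r*, *Cx3cr1* and *Tmem119*, all lower in microbead retina) and 20.2% of all genes, and limma-voom called 0 members and 12.5% of all genes. An offset for GC content and length in edgeR gave 2 members (*Cx3cr1* and *Csf1r*) and 15.6% of all genes, and no filter on low counts gave 4 members and 11.9%. The groups did not overlap for 2 members, *Cx3cr1* and *Tmem119*, both lower in microbead retina, and for 37.8% of the genes tested (18.9% lower and 18.8% higher). Markers of some other cells were lower. Of 8 endothelial markers, edgeR called 4 lower, with 8 of 8 below 0. These 8 summed to 461, 480 and 663 CPM in saline and 303, 432 and 284 CPM in microbead retina. Of 8 Müller glia markers, edgeR called 3 lower, with 8 of 8 below 0. Other lists were mixed: 4 of 8 RGC, 3 of 4 astrocyte, 5 of 8 pigment epithelium and 2 of 8 rod markers were above 0. Of these, 1 astrocyte and 1 rod marker were called, both lower. The part of these other cells in the member values was not tested. Without saline replicate 1, the median of the members was 0.51, with 3 below and 6 above 0, and edgeR called 1 member, *Cd68*, and 15.1% of all genes.

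**Figure D2:**
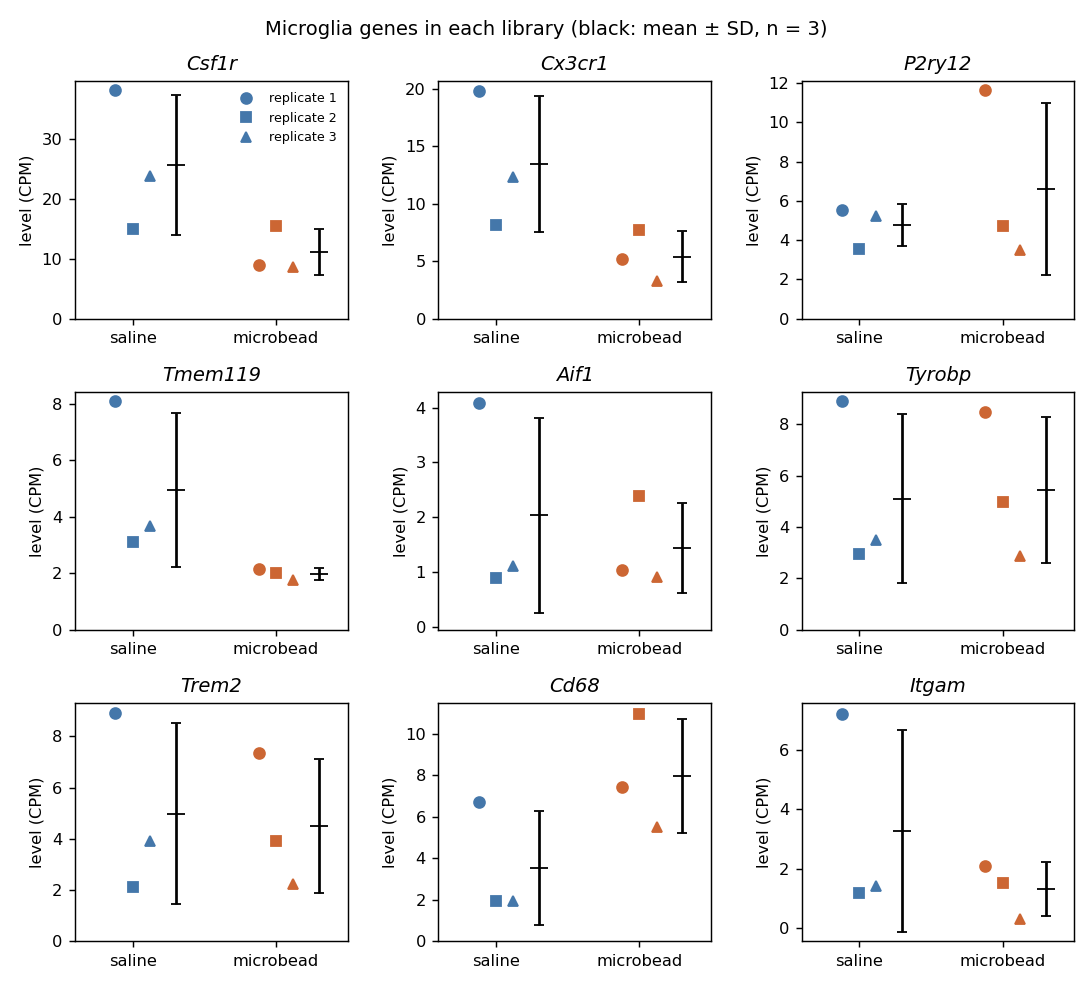
Level of each microglia gene in CPM (y axis, one scale per panel) in the saline and microbead libraries (x axis); symbols mark the replicate, and the black bars give the mean ± SD (n = 3). Saline replicate 1 is the highest saline point in all 9 panels, and *Cx3cr1* and *Tmem119* are the 2 genes whose groups do not overlap.

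Among the homeostatic receptors, *Csf1r* was measured at 38.2, 15.0 and 23.9 CPM in saline retina and at 9.01, 15.5 and 8.71 CPM in microbead retina. The second microbead library lay just above the lowest saline library, and the others lay below all saline libraries. The means were 25.7 ± 11.7 and 11.1 ± 3.85 CPM (SD, n = 3 each), with a log2 fold change of -1.22 ± 0.36 (SE, adjusted p = 0.0542 by edgeR). This value is just over the threshold, and the side on which it fell depended on the method: over the alternatives with all 6 libraries the adjusted p-value ran from 0.000446 (no filter on low counts) to 0.118. Without saline replicate 1, the log2 fold change was -0.82 (adjusted p = 0.101 from edgeR). In the annotation, 15.1% of the exon bases of *Csf1r* overlap exons of *Hmgxb3* on the opposite strand, and the use of strand in counting is not given in the sources used here.

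*Cx3cr1*, the fractalkine receptor gene (chr9:119901616-120069879, GRCm38, reverse strand), was at 19.8, 8.19 and 12.4 CPM in saline retina and at 5.20, 7.73 and 3.25 CPM in microbead retina. Every microbead library was below every saline library, although the closest pair, 7.73 and 8.19 CPM, nearly met. The log2 fold change was -1.32 ± 0.40 (SE, adjusted p = 0.0574 by edgeR, 0.00155 to 0.0991 over the alternatives with all libraries). Without saline replicate 1 it was -0.93 (adjusted p = 0.109 from edgeR).

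*Tmem119* (chr5:113793729-113800516, reverse strand) was at 8.10, 3.11 and 3.68 CPM in saline retina, and at 2.16, 2.02 and 1.75 CPM in microbead retina. The microbead libraries lay within 1.23-fold of each other and below all saline libraries, while the saline libraries spread over 2.60-fold. The log2 fold change was -1.32 ± 0.43 (SE, adjusted p = 0.0692 by edgeR, 0.0237 to 0.150 over the alternatives with all libraries), and -0.78 without saline replicate 1 (adjusted p = 0.194).

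*P2ry12* did not share this direction. It was at 5.52, 3.55 and 5.22 CPM in saline retina and at 11.6, 4.69 and 3.51 CPM in microbead retina, and the microbead libraries spread over 3.32-fold, with 226 counts in replicate 1 against 65 and 54. The log2 fold change was 0.48 ± 0.44 (SE, adjusted p = 0.492 by edgeR) with all libraries and -0.22 (adjusted p = 0.708 from edgeR) without microbead replicate 1, and 0.60 without saline replicate 1. The related receptor gene *P2ry13*, chosen after its values were seen, had 2 counts (0.103 CPM) in the same library, against 2.53 and 1.30 CPM in the other microbead retinas and 1.60 to 2.11 CPM in saline retina. Of the exon bases of *P2ry12* (chr3:59216272-59262871, GRCm38, reverse strand), 0.35% overlap exons of *Med12l* on the opposite strand.

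*Cd68* showed the highest fold change of the members. Its gene lies at chr11:69664213-69666153 on the reverse strand. It was at 6.72, 1.91 and 1.94 CPM in saline retina and at 7.46, 11 and 5.52 CPM in microbead retina. Saline replicate 1 lay inside the microbead range, and the other saline libraries lay below all microbead libraries. The means were 3.52 ± 2.77 and 7.99 ± 2.76 CPM (SD, n = 3 each), a 2.27-fold difference with a log2 fold change of 1.18 ± 0.52 (SE, adjusted p = 0.152 by edgeR, 0.0376 to 0.152 over all settings with 6 libraries). Without saline replicate 1, it was 2.05 (standard error 0.39) and past the threshold (adjusted p = 0.0124 from edgeR), and over all 6 fits with 1 library left out the adjusted p-value ran from 0.0124 to 0.352.

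Among the members whose promoters were examined, *Cd68* had the highest and *Cx3cr1* the lowest log2 fold change, and their promoters are shown for that reason. Both are RefSeq windows of 300 bases on the GRCm38.p6 build, from 250 bases before to 50 bases after the start site, on the reverse strand, at chr11:69666121-69666420 for *Cd68* and chr9:120068247-120068546 for *Cx3cr1*. Capitals mark GAGGAA or its reverse complement TTCCTC, the core letters bound by PU.1, the lineage factor of macrophages and microglia that *Spi1* encodes.
Cd68: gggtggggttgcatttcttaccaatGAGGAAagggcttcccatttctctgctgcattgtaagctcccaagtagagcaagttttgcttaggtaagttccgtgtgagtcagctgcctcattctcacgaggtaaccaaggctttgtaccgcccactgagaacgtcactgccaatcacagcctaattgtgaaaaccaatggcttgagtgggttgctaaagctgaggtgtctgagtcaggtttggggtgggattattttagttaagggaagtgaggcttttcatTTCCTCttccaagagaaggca
Cx3cr1: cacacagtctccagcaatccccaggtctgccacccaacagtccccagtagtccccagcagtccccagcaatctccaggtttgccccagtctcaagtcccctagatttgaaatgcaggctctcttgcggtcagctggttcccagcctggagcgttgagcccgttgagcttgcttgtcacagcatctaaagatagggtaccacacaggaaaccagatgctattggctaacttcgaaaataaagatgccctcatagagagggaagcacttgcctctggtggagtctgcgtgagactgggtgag
The *Cd68* window holds 2 matches and the *Cx3cr1* window 0. Promoters of 6 of the 9 members were examined, and 4 of these (*Aif1*, *Trem2*, *Cd68* and *Itgam*) hold a match on either strand, against 28.3% of all 32851 promoters. The promoters of the remaining members were not examined, so the 4 of 6 does not describe all 9 members. *P2ry12* holds 0. The absence of these letters from a window says nothing of the factor at the gene.

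The signaling pair *Tyrobp* and *Trem2* differed by less than the spread between libraries. *Tyrobp* (chr7:30413760-30417585, forward strand) was at 8.90, 2.94 and 3.48 CPM in saline retina and at 8.49, 4.98 and 2.86 CPM in microbead retina, a log2 fold change of 0.10 ± 0.51 (SE, adjusted p = 0.917 by edgeR). *Trem2* (chr17:48346401-48354147, forward strand) was at 8.92, 2.09 and 3.91 CPM in saline retina and at 7.36, 3.90 and 2.21 CPM in microbead retina, a log2 fold change of -0.14 ± 0.57 (SE, adjusted p = 0.893 by edgeR). In each gene, replicate 1 was the highest library of both groups, and the groups overlapped over almost their whole range. Without saline replicate 1, *Tyrobp* was at 0.76 and *Trem2* at 0.59 on that scale (adjusted p = 0.262 and 0.457 from edgeR).

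*Aif1* and *Itgam*, both common labels for microglia in tissue sections, had few counts in the microbead libraries. *Aif1* (chr17:35170991-35176068, reverse strand) was at 4.09, 0.892 and 1.11 CPM in saline and at 1.03, 2.38 and 0.909 CPM in microbead retina (log2 fold change -0.50 ± 0.66 SE, adjusted p = 0.642 by edgeR). *Itgam* (chr7:128062640-128118491, forward strand) was at 7.20, 1.20 and 1.43 CPM in saline retina and at 2.11, 1.52 and 0.325 CPM in microbead retina (log2 fold change -1.30 ± 0.80 SE, adjusted p = 0.30 by edgeR). Saline replicate 1 was the highest library for both genes, and without it *Aif1* was at 0.51 and *Itgam* at 0.01 on the log2 scale (adjusted p = 0.596 and 0.992 from edgeR). The lowest *Itgam* value, in microbead replicate 3, rests on 5 counts. Of the 100-base stretches of *Itgam* transcripts, 64.3% also occur in transcripts of other gene models of the later annotation. In that annotation, 68.7% of its exon bases lie in the same-strand model *Gm49368*, which is not among the genes of the count table. Stretches shared with this overlapping model were not told apart from stretches found elsewhere in the genome. Whether reads of *Itgam* also match elsewhere is therefore not known, and its values are uncertain.

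**Figure D3:**
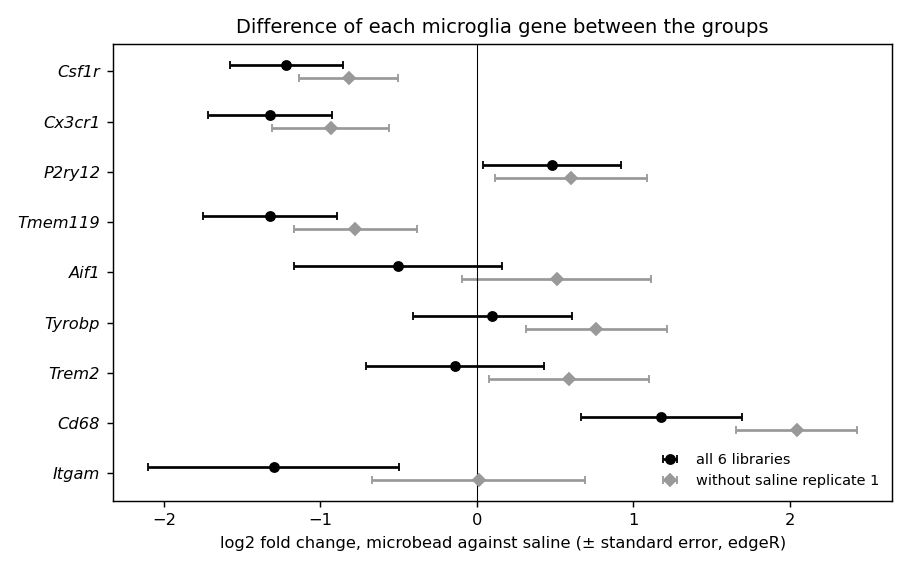
Log2 fold change of each microglia gene between microbead and saline retina (x axis, ± standard error from edgeR) with all 6 libraries (black) and without saline replicate 1 (gray). *Csf1r*, *Cx3cr1* and *Tmem119* lie below 0 in both fits and *Cd68* above 0 in both (1.18 and 2.05), whereas *Aif1*, *Trem2* and *Itgam* change sign.

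Within a library, the members were compared as shares of their summed CPM, which are independent of library scaling. The sum itself was 108, 38.9 and 57.1 CPM in saline and 54.5, 53.7 and 29.0 CPM in microbead retina, and the groups overlapped. The log2 ratio of the group means of this sum was -0.57, and -0.07 without saline replicate 1. *Cd68* made up 6.25, 4.91 and 3.40% of the sum in saline retina and 13.7, 20.4 and 19.0% in microbead retina. *Csf1r* made up 38.7 ± 3.20% and 25.1 ± 7.47%, and *Cx3cr1* 20.4 ± 1.70% and 11.7 ± 2.46% (SD, n = 3 each). The shares of 5 members (*Cd68* and *Tyrobp* higher, *Csf1r*, *Cx3cr1* and *Tmem119* lower in microbead retina) did not overlap between groups, and neither did 15.9% of all tested genes when divided by the same sum. That sum ran from 29.0 to 108 CPM over the libraries. Division by it can add spread to genes that do not follow it, so the 15.9% is not a like comparison for the members. Since the shares add up to a whole, a larger share of one member lowers the others.

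**Figure D4:**
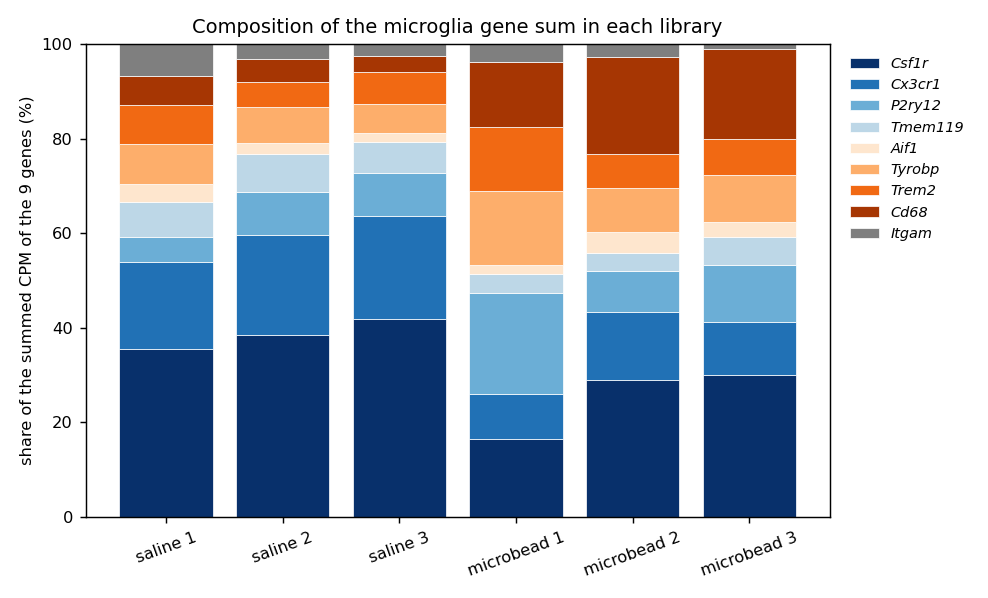
Share of each gene in the summed CPM of the 9 microglia genes (y axis, %) in each library (x axis); blue marks the homeostatic members. *Cd68* takes 3.40 to 6.25% in the saline and 13.7 to 20.4% in the microbead libraries, and *Cx3cr1* 18.5 to 21.7% and 9.55 to 14.4%.

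The homeostatic members summed to 48.9 ± 21.2 CPM in saline and 25.1 ± 6.86 CPM in microbead retina (SD, n = 3 each, log2 ratio -0.96). The activation-associated members summed to 18.9 ± 14.7 and 20.7 ± 7.79 CPM (SD, n = 3 each, log2 ratio 0.13), and both sums overlapped between groups. The activation-associated sum divided by the homeostatic sum was 0.500, 0.303 and 0.263 in saline retina and 0.945, 0.793 and 0.687 in microbead retina, without overlap. The log2 ratio of the group means of this quotient was 1.19. With all libraries, the mean homeostatic sum was lower and the mean activation-associated sum nearly equal. That near equality rested largely on saline replicate 1, whose activation-associated sum was 35.8 CPM. Saline replicates 2 and 3 were at 9.04 and 11.9 CPM, and the microbead libraries at 26.5, 23.8 and 11.8 CPM. When saline replicate 1 was left out, 5 of 5 activation-associated and 1 of 4 homeostatic members had log2 fold changes above 0. Saline replicate 1, with the highest levels, had the highest ratio of the saline libraries, and without it the log2 ratio was 1.52. The ratio rested in part on *Cd68*: without that gene it was 0.406, 0.239 and 0.220 in saline and 0.678, 0.426 and 0.366 in microbead retina, where saline replicate 1 lay above microbead replicate 3, and the log2 ratio was 0.77.

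The members were also set against the pan-myeloid list, which holds none of them. Per 100 CPM of that list, *Cd68* was at 1.81, 2.13 and 1.55 CPM in saline retina and at 3.75, 6.04 and 6.83 CPM in microbead retina. *Cx3cr1* was at 5.35, 9.13 and 9.84 in saline and at 2.62, 4.25 and 4.02 in microbead retina, and *Tmem119* at 2.86 ± 0.643 and 1.46 ± 0.617 (SD, n = 3 each). These 3 genes and *Itgam* (1.47 ± 0.419 and 0.766 ± 0.335) did not overlap between groups on this scale, and 6.28% of all tested genes did not. For *Tmem119* the groups nearly met, with saline replicate 1 at 2.19 and microbead replicate 3 at 2.17. For *Itgam*, saline replicate 3 at 1.136 lay just above microbead replicate 1 at 1.062. The pan-myeloid sum itself ran from 80.9 to 371 CPM, and division by it can add spread to genes of other cells. The 6.28% is therefore not a like comparison for the members. On this scale saline replicate 1 lay below all microbead libraries for *Cd68*, with the other saline retinas. *Tyrobp*, *Trem2*, *Aif1*, *P2ry12* and *Csf1r* overlapped.

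Of 80 other tested genes in 5 lists of microglial and related function, edgeR called 4, all of them lower in microbead retina, or 5%. This share lies below the 12.8% called among all tested genes (6.31% lower). In whole retina, the cells that made the transcripts of these 4 genes cannot be told apart. Among 12 further homeostatic microglia genes, 1 was called, and *Gpr34*, a lysophospholipid receptor, had a log2 fold change of -0.59 (adjusted p = 0.399 from edgeR), and of -0.35 without saline replicate 1. The median of these 12 was -0.37, and -0.18 without saline replicate 1. Several of them, such as *Mef2c*, are also made by retinal neurons. Of the 20 pan-myeloid genes, 1 was called, *Coro1a*, an actin regulator of leukocytes (log2 fold change -1.09, adjusted p = 0.0365 from edgeR). It fell short of the threshold without saline replicate 1 (-0.93, adjusted p = 0.060 from edgeR). The kinase gene *Lyn* and the exchange factor gene *Vav1* had log2 fold changes of -1.23 and -1.16 (adjusted p = 0.129 and 0.329 from edgeR), and of -0.66 and 0.09 without saline replicate 1. The pan-myeloid median was -0.40 with all libraries and 0.52 without saline replicate 1, with 15 of 20 above 0.

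Genes that microglia raise around plaques and in degeneration (the disease-associated list) had a median of -0.03 on the log2 scale over 20 genes, and of 0.10 without saline replicate 1. The receptor kinase gene *Axl*, which mediates uptake of dying cells, was called (log2 fold change -1.07, adjusted p = 0.0363 from edgeR). It was at 42.8, 26.5 and 36.6 CPM in saline and at 13.2, 23.5 and 13.7 CPM in microbead retina. *Axl* fell short of the threshold without saline replicate 1 (-0.92, adjusted p = 0.0557 from edgeR). The lysozyme gene *Lyz2* was at 21.6, 6.47 and 5.82 CPM in saline and at 27.6, 30.3 and 1.69 CPM in microbead retina. Its log2 fold change was 0.82 (adjusted p = 0.527 from edgeR), and ran from 0.40 without microbead replicate 2 to 1.69 without saline replicate 1. The lysosomal protease genes *Ctsb*, *Ctsd* and *Ctsl* of that list, which many retinal cells make and which were chosen after their values were seen, had log2 fold changes of -0.01, 0.19 and 0.01 (adjusted p = 0.972, 0.586 and 0.984 from edgeR).

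For ligands and signaling partners of the members, 17 of 17 log2 fold changes were below 0, with a median of -0.39. Of these 17, 1 was called, the adaptor gene *Grb2* (-0.57, adjusted p = 0.0490 from edgeR). Over the alternatives with all libraries, its adjusted p-value ran from 0.0213 to 0.0790. *Grb2* was called in 0 of the 6 edgeR fits with 1 library left out. DESeq2 also called *Runx1*, a transcription factor gene of blood and myeloid cells named after its values were seen, which had 78, 44 and 53 counts in saline and 2, 9 and 3 in microbead retina (log2 fold change -2.29 with adjusted p = 0.0610 from edgeR, and -2.27 with adjusted p = 0.0299 from DESeq2). Without saline replicate 1, the median was -0.11 and 7 of 17 were above 0. The ligand genes, chosen after their values were seen, were not called: *Csf1* was at -0.32, *Il34* at -0.56 and *Cx3cl1*, which encodes fractalkine, at -0.30 (adjusted p = 0.568, 0.222 and 0.351 from edgeR). *Irf8*, a transcription factor of microglia, was at -1.29 (adjusted p = 0.158) with all libraries and -0.33 without saline replicate 1, and *Itgb2*, whose product pairs with CD11b, at -0.68 (adjusted p = 0.451) and 0.04. Of 13 tested genes of inflammatory cytokines and sensors, edgeR called 0. DESeq2 and limma-voom each called 1 of the 13, *Il18*, against 20.2% and 12.5% of all tested genes. The median of the 13 was -0.43, with 11 of 13 below 0, and -0.36 without saline replicate 1. At an unadjusted p-value under 0.05 from edgeR there were 3 of the 13, where 31.4% of all tested genes passed. Of these 3, *Il18* was above 0. The chemokine gene *Cxcl10* (-1.54, adjusted p = 0.0904 from edgeR) and the NF-κB inhibitor gene *Nfkbia* (-0.57, adjusted p = 0.0925 from edgeR) were below 0. These 2 were named after their values were seen. The cytokine gene *Il18* was at 4.30, 3.90 and 3.54 CPM in saline and 8.96, 6.50 and 6.82 CPM in microbead retina (log2 fold change 0.93, adjusted p = 0.0548 from edgeR), and *Tlr2*, a receptor for bacterial lipoproteins, was at -0.99 (adjusted p = 0.358) and at -0.36 without saline replicate 1. *Il1b*, *Tnf*, *Ccl2* and *Ccl3* had too few counts to be tested. Over the 6 fits with 1 library left out, edgeR called at most 1 gene of these 5 lists, and 0 without saline replicate 1.

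The members varied together from library to library. Over the 36 pairs, the Pearson correlation of log2 CPM across the 6 libraries had a median of 0.58 (-0.21 to 0.97), and after the group means were removed a median of 0.79, with 36 of 36 above 0. These points share the library, its depth and saline replicate 1, and the values are a description. *P2ry12* took part in the 5 weakest pairs after the group means were removed, the weakest being that with *Aif1* at 0.13. Among 11837 other genes with a mean of at least 5 CPM, those most like the mean log2 CPM of the members over the 6 libraries were *H2-Ab1* (Pearson r = 0.99), which encodes a class II antigen-presenting chain, *Ly6a*, *Lcp1*, *Cd44* and *S100a6* (r = 0.98 for each). *H2-Ab1* was at 28.9, 2.92 and 4.22 CPM in saline retina and at 9.32, 8.59 and 1.69 CPM in microbead retina.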

How the data were processed

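The deposited table holds raw counts per gene for 6 libraries. Per the study's methods and the labels, the authors aligned reads with STAR 2.5.3a to GRCm38.p5 with GENCODE annotation and counted them with featureCounts 1.15.2. Strand use and the treatment of multimapping reads in counting are not given in the sources used here. The columns of the authors' own DESeq2 comparison were not used.

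Genes passing filterByExpr (at least 10 counts, 15 in total) were scaled by TMM and tested between microbead and saline retina with edgeR 4.0.16 in R 4.3.3 (quasi-likelihood test, two-sided, Benjamini-Hochberg adjusted p under 0.05). CPM and RPKM use TMM-scaled library sizes. At these depths 3 counts equal 0.0622 to 0.217 CPM. Exon lengths and positions came from a later GENCODE annotation of GRCm38, and promoters from RefSeq (GRCm38.p6). The main edgeR fit was tested on simulated data, and the other steps were not. Pairs of replicates differed by far more than counting noise, so that no library was a copy of another.

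The members and gene lists were chosen with earlier results of these data known. Named were the 9 members, from each list the 2 genes of at least 1 CPM with the largest absolute log2 fold change and every gene past the threshold (if 5 or fewer), and the 5 genes most like the members' mean log2 CPM. One gene that this rule names is not reported here. Alternatives were other scalings (RLE, upper quartile, leaving mitochondrial genes out of library sizes), other filters, DESeq2 1.42.0, limma-voom (limma 3.58.1), the replicate number as a block, a GC content and length offset, each library left out and a threshold of 0.01. The activation to homeostatic ratio without single libraries or without *Cd68* was added after seeing the data.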

Additional observations from a re-analysis of the deposited data

How the results depend on the processing

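Against 2261 genes (1143 higher, 1118 lower), 0 members and 4 list genes called by edgeR, the calls were 3720 (1511 higher, 2209 lower), 4 and 7 without a filter on low counts, 3582, 3 and 6 with DESeq2, and 2754, 2 and 5 with the GC content and length offset. With at least 10 counts in every library, 1 member was called of the 8 then tested, *Itgam* being left out. At an adjusted p under 0.01, 87 genes and 0 list genes were called. Leaving out 1 library gave 46 (without microbead replicate 3) to 2621 genes (without saline replicate 1), 0 to 1 members and 0 to 1 list genes. The replicate numbers, given in accession order, did not pair the samples (correlations of same-numbered deviations -0.04, 0.14 and 0.01, and replicate 2 alone correlated best with its own number). With the replicate number as a block, 905 genes and 1 list gene were called, and 1226 and 2 with the block and the GC offset. Over the member and alternative pairs, 123 kept direction and side of the threshold, 11 passed it, 0 lost it and 9 turned sign. With 0 members called in the main fit, no pair could lose the threshold, and the 123 stayed uncalled. With limma-voom *Trem2* was at 0.032 (log2). With 1 library left out, log2 fold changes ran from -1.04 to 0.51 for *Aif1*, -0.22 to 0.77 for *P2ry12*, -0.38 to 0.76 for *Tyrobp*, -0.71 to 0.59 for *Trem2*, -1.84 to 0.012 for *Itgam*, -1.66 to 0.091 for *Vav1* and -1.10 to 0.045 for *Itgb2*. The cause was not tested. No scaling moved the median of all genes by over 0.1, and without the filter it was -0.23. The depth limits *Itgam* and *Aif1* most.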
